A study of Mus musculus with 40 samples.

Results

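A set of 9 genes that restrain signalling through mitogen-activated protein kinases (MAPK) was followed in the mouse amygdala, made up of the dual-specificity phosphatases Dusp1, Dusp4, Dusp5, Dusp6 and Dusp14, the Sprouty genes Spry2 and Spry4, and the Spred genes Spred1 and Spred2. They were chosen by name, with earlier results of these data known, as 9 of the 43629 genes counted. All 9 are protein coding and passed the filter on low counts in each of the 12 comparisons made. After social interaction 4 of them rose in conventional (CON) mice, where 2.35% of all genes tested rose. In germ-free (GF) mice 7 rose, where 7.87% of all genes did, and in mice colonised after weaning (exGF) 2 rose, where 4.6% of all genes did. None of the 9 fell. Dusp4 and Spred1 rose in each of the 3 kinds of mice, whereas Dusp1 and Dusp5 passed the test in none.

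Extracellular signals and calcium entry activate the kinase ERK in neurons through Ras, Raf and MEK, and ERK then drives transcription of genes that serve synaptic plasticity. Among the genes switched on in this way are inhibitors of the same pathway, which makes a negative feedback loop. MAPK phosphatases remove the activating phosphates from ERK and, depending on the enzyme, from the related kinases JNK and p38, while Sprouty and Spred proteins act further upstream, on Ras and Raf.

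RNA was sequenced from the left amygdala of male Swiss Webster mice aged 10 weeks. CON mice were raised conventionally, GF mice were germ-free, and exGF mice were born germ-free and acquired microbes after weaning, in the standard unit on bedding used by CON mice. Naïve animals of each kind (CON, GF, exGF) were compared with animals killed 1 hr after social interaction (CON-SI, GF-SI, exGF-SI), a test in an arena of 3 chambers with a mouse and an object that also included habituation to room and arena. Each naïve group held 4 libraries, whereas GF-SI held 12 and CON-SI and exGF-SI 8 each. Naïve libraries (named with P) were pools of animals, whereas libraries after social interaction (named with S) were single animals, so that the test, the handling that came with it and pooling cannot be told apart in those comparisons. The parents of CON mice were not those of GF and exGF mice. The tissue was bulk, in which fewer cells of a type and less RNA per cell cannot be told apart, and p-values measure the spread between these libraries.

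Library totals ranged from 7291810 to 19961958 counts. The gene Gm42418 was abundant in 5 libraries, namely exGF-S7, the naïve CON pools P1 and P3 and the naïve exGF pools P1 and P2, where it took from 6.23% to 32.3% of the counts, against at most 1.75% in the others. Markers of amygdala nuclei were found in every library, with summed levels of 179 to 365 CPM (counts relative to the library total, scaled by the TMM method of edgeR). Etv1 and Lmo3 had the highest means of that list in CON libraries, 125 and 117 CPM, against 6.55 CPM for Prkcd and 1.95 CPM for Tac2. GF-P1 had the highest sum of 6 striatal markers, 198 CPM, against 63.3 to 124 CPM in the other libraries. Choroid plexus markers reached 1008 CPM in GF-S8 and 1446 CPM in exGF-S9. For the 9 genes, values without the libraries rich in Gm42418 are given beside the comparisons those libraries enter, and each library was also left out in turn. The lists of other genes at the end include all libraries.

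Per kilobase of exon, Spred1 was the most abundant of the 9 in all 6 groups, with group means from 41.4 to 65.9 CPM per kb. Dusp6 and Dusp14 followed, at 14.2 to 31.2 CPM per kb, then Spry2 and Spred2 at 8.00 to 13.3 CPM per kb and Dusp4 at 3.52 to 8.42 CPM per kb. Dusp1, Dusp5 and Spry4 were lowest in each group, between 1.30 and 2.95 CPM per kb, and their precision was limited by counts that went down to 32, 23 and 33 in a library.

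**Figure D1:**
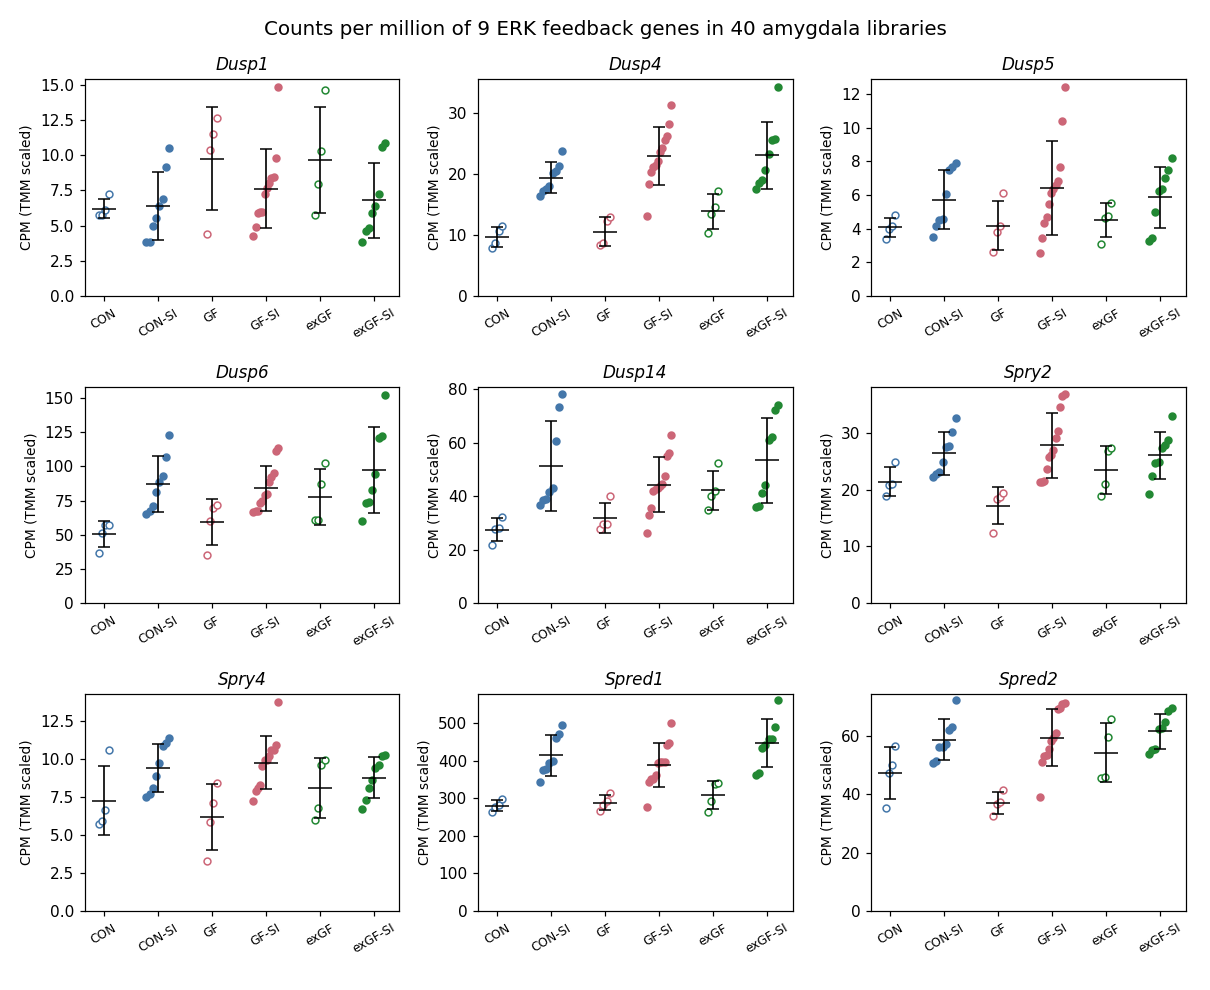
Level of each gene by library and group. The y axis is CPM scaled by TMM, each starting at 0, and points are libraries (open for naïve, filled for social interaction) with the group mean and SD in black. Dusp4 of all 8 CON-SI libraries (16.3 to 23.9 CPM) lay above the 4 CON libraries (7.92 to 11.4 CPM), whereas Dusp1 groups overlapped throughout.

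Dusp6, a cytoplasmic phosphatase that acts on ERK, lies at chr10:99263231-99267489 on the plus strand of GRCm38. Its level in naïve CON libraries was 36.7, 57.0, 57.1 and 51.4 CPM, and CON-SI libraries had a lowest value of 65.1, a median of 85.0 and a highest of 123 CPM. All CON-SI libraries were thus above all CON libraries. The level rose 1.71-fold in CON-SI (log2 fold change 0.77 ± 0.18 SE, edgeR adjusted p = 0.0431), a call lost without CON-P1 (0.66, adjusted p = 0.125) or CON-P4 (0.78, adjusted p = 0.103). In GF libraries it was 35.2, 60.2, 72.1 and 69.9 CPM, and in GF-SI libraries 66.7 at the lowest, 79.3 at the median and 114 at the highest. These groups overlapped, and the rise of 1.41-fold (0.50 ± 0.17, adjusted p = 0.0799) was 0.31 on the log2 scale without GF-P1, with an adjusted p of 0.246 in edgeR. The call was also lost without GF-P2, GF-P3, GF-S8 or GF-S12 (edgeR adjusted p of 0.105 to 0.182). GF-P1, the library with the highest sum of striatal markers, was the lowest of the GF libraries for Dusp6, and a link between these was not tested. Naïve exGF libraries had 87.4, 102, 60.6 and 61.1 CPM, and exGF-SI libraries 59.9 at the lowest, 88.9 at the median and 152 at the highest. Social interaction gave a log2 fold change of 0.33 here (95% interval -0.15 to 0.81), which did not pass the test. The pair of exGF libraries with the most Dusp6 were those rich in Gm42418, and without the rich libraries the log2 fold change was 0.73 (edgeR adjusted p = 0.255). In CON mice it was then 0.69, and the call was lost (edgeR adjusted p = 0.274).

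The 250 bases before the start of Dusp6 are shown for comparison with those of Dusp1 and Dusp5. The windows of Dusp1 and Dusp5 hold matches to binding motifs of activity-regulated factors, and these 2 genes passed the test in no kind of mouse. For Dusp5 this does not show that it did not rise, since it had the fewest counts. Its log2 fold changes in CON, GF and exGF mice were 0.49, 0.63 and 0.39, against 0.77, 0.50 and 0.33 for Dusp6. Sequences are from RefSeq (GRCm38.p6), 5′ to 3′ on the strand of the gene, leaving out bases that fall in an exon of the gene in the annotation, and capitals mark motif matches.
Dusp6, chr10:99262981-99263230, plus strand: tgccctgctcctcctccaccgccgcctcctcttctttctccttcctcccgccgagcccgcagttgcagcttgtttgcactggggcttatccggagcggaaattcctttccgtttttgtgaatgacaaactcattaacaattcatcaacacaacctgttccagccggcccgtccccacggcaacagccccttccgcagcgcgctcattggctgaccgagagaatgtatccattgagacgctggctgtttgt
Dusp1, chr17:26508520-26508722, minus strand: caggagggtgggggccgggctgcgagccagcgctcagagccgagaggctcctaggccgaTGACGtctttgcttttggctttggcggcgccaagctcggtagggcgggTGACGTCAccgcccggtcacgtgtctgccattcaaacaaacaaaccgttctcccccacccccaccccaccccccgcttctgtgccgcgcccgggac
Dusp5, chr19:53528895-53529108, plus strand: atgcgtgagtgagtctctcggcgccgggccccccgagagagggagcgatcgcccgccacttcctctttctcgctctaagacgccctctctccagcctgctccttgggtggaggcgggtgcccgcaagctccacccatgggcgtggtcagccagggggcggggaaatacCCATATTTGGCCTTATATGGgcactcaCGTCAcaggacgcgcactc
The motifs searched on both strands were the cyclic AMP response element (CRE) TGACGTCA, its core TGACG, which every CRE holds on both strands, TGANTCA for AP-1 factors, GCGNGGGCG for EGR factors, CCGGAAG for ETS factors, the TATA box with the letters TATAAA, and the CArG box, the site of serum response factor. Starts are here the ends of the 250-base windows, which for Dusp1 and Dusp5 lie past the bases printed and inside the annotated gene. Dusp1 holds a CRE from 143 to 136 bases before its start and a separate TGACG 191 bases before it. Dusp5 holds a pair of adjoining CArG boxes, CCATATTTGG 82 and CCTTATATGG 72 bases before its start, and a TGACG on the other strand. Of 32851 promoter windows of the same length, 1.55% hold a CRE, 1.47% a CArG box and 17.8% the core TGACG. Windows were found for 7 of the 9 genes, and Dusp4, the gene with the highest fold change, and Spry4 had none and were not searched. Spred2 holds a single TGACG, in its own exon, and no motif of those searched was found in the windows of Dusp6, Dusp14, Spry2 and Spred1. These matches are descriptions of sequence and were not tested as sites.

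Dusp5, a nuclear phosphatase of ERK at chr19:53529109-53542431, was the gene with the fewest counts. Its level was 4.14, 4.80, 3.96 and 3.41 CPM in the CON libraries, and 3.48 at the lowest, 5.31 at the median and 7.87 at the highest in CON-SI. GF libraries had 2.61, 3.78, 4.13 and 6.11 CPM and GF-SI libraries ranged from 2.55 to 12.4 CPM with a median of 6.24. In exGF libraries it was 5.50, 4.75, 3.08 and 4.65 CPM, and in exGF-SI libraries from 3.27 to 8.18 CPM with a median of 6.31. The groups overlapped in each kind of mouse. The log2 fold changes of 0.49 ± 0.24, 0.63 ± 0.32 and 0.39 ± 0.25 SE had edgeR adjusted p of 0.321, 0.241 and 0.386, and 95% intervals that reached 1.00, 1.30 and 0.92. Without the libraries rich in Gm42418 the value was 0.49 in CON and 0.62 in exGF mice (edgeR adjusted p of 0.611 and 0.41). An antisense gene of a later annotation (AC137853.2) covers 22.1% of the exon length of Dusp5, and since counting disregarded strand, reads of the 2 genes cannot be told apart there.

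Dusp1, a nuclear phosphatase of p38, JNK and ERK that is itself an immediate early gene, had negative estimates in GF and exGF mice. It was at 5.76, 7.24, 5.76 and 6.10 CPM in the CON libraries, and CON-SI libraries spread around them from 3.81 to 10.5 CPM with a median of 5.98. GF libraries had 4.43, 10.4, 11.6 and 12.6 CPM, and GF-SI libraries a range of 4.28 to 14.9 CPM with a median of 7.49. In exGF libraries the values were 14.6, 10.3, 5.78 and 7.99 CPM, and in exGF-SI libraries 3.81 to 10.9 CPM with a median of 6.14. The groups overlapped in all 3 comparisons. Log2 fold changes after social interaction were 0.03 (95% interval -0.52 to 0.58) in CON, -0.36 (-0.91 to 0.20) in GF and -0.50 (-1.10 to 0.11) in exGF mice, none of which passed the test in edgeR. Without the libraries rich in Gm42418 the value was -0.06 in CON mice and -0.02 in exGF mice.

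Dusp4, a nuclear phosphatase of ERK, JNK and p38 at chr8:34807297-34819894, had the highest fold change of the 9 genes in each kind of mouse. CON libraries were at 7.92, 8.61, 10.6 and 11.4 CPM, and CON-SI libraries at 16.3 at the lowest, 19.2 at the median and 23.9 at the highest. GF libraries had 8.67, 12.3, 8.36 and 12.9 CPM, and GF-SI libraries 13.1 at the lowest, 22.9 at the median and 31.4 at the highest. Naïve exGF libraries had 14.5, 17.2, 10.3 and 13.5 CPM, against 17.6, 21.9 and 34.3 CPM as lowest, median and highest of exGF-SI. In each kind of mouse every library after social interaction was above every naïve library. Dusp4 rose 1.99-fold in CON mice (log2 fold change 0.99 ± 0.13 SE, edgeR adjusted p = 0.00209), 2.17-fold in GF mice (1.11 ± 0.18, adjusted p = 0.00145) and 1.67-fold in exGF mice (0.74 ± 0.18, adjusted p = 0.0408). Leaving out any 1 library kept the call in CON and GF mice. In exGF mice it was lost without exGF-P3 (edgeR adjusted p = 0.119) or exGF-P4 (adjusted p = 0.142), and kept without the libraries rich in Gm42418 (0.99, adjusted p = 0.0965), as was the call in CON mice (0.95, adjusted p = 0.0608).

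Dusp14, a small phosphatase of MAPK without the kinase-binding domain of the larger ones, lies at chr11:84048041-84069261 on the minus strand. It was at 21.8, 32.2, 28.3 and 27.8 CPM in the CON libraries and from 36.8 to 78.2 CPM, with a median of 42.5, in CON-SI, so that the groups did not overlap. The rise of 1.85-fold (0.89 ± 0.22 SE, edgeR adjusted p = 0.0602) was lost when any 1 of the 4 CON libraries was left out, at adjusted p of 0.123 to 0.173. GF libraries had 29.5, 29.6, 40.2 and 27.9 CPM, and GF-SI libraries 26.2 to 63.0 CPM with a median of 43.4. These groups overlapped, and the rise of 1.40-fold (0.48 ± 0.17, edgeR adjusted p = 0.0909) remained in only 3 of 16 fits that left out a library (GF-S3, GF-S4 or GF-S10), with edgeR adjusted p of 0.101 to 0.234 in the other fits. The exGF libraries were higher, at 39.9, 52.4, 41.8 and 34.8 CPM, and exGF-SI libraries had 36.0 to 74.2 CPM with a median of 52.6. The log2 fold change in exGF mice was 0.34 (95% interval -0.09 to 0.77). The highest of the naïve values, 52.4 CPM, was that of exGF-P2, and without the libraries rich in Gm42418 the change was 0.55 (edgeR adjusted p = 0.33). In CON mice it was then 0.78, and the call was lost (edgeR adjusted p = 0.369).

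Spry2 and Spry4 encode Sprouty proteins, which block the signal from receptor tyrosine kinases to Ras and Raf. Spry2, at chr14:105891947-105896819, had its lowest values in naïve GF mice, at 18.2, 19.3, 12.4 and 18.7 CPM, and all 12 GF-SI libraries were above them, with a lowest value of 21.3, a median of 26.5 and a highest of 36.9 CPM. It rose 1.61-fold in GF-SI (0.69 ± 0.16 SE, edgeR adjusted p = 0.014), a call that no left-out library removed. CON libraries were at 24.8, 20.8, 21.1 and 18.8 CPM and CON-SI libraries at 22.3 to 32.6 CPM with a median of 26.2. The log2 fold change of 0.31 (95% interval 0.06 to 0.56, edgeR adjusted p = 0.201) did not pass the test over all genes. In exGF mice it was 0.16 (-0.13 to 0.44), from 27.3, 26.7, 18.9 and 21.0 CPM to 19.2 at the lowest, 26.1 at the median and 33.0 at the highest. The naïve exGF pools with the most Spry2, P1 and P2, were those rich in Gm42418. Leaving such libraries out gave 0.39 in exGF mice (edgeR adjusted p = 0.287) and 0.42 in CON mice (adjusted p = 0.337). Spry4 was at 5.87, 8.43, 3.29 and 7.07 CPM in GF libraries and from 7.24 to 13.7 CPM, with a median of 9.95, in GF-SI. The groups overlapped, and the rise of 1.57-fold (0.65 ± 0.19, edgeR adjusted p = 0.039) was lost without GF-P3, the lowest library (0.45, adjusted p = 0.16). For Spry4 the CON libraries had 5.94, 10.6, 6.66 and 5.75 CPM and CON-SI libraries 7.47 to 11.4 CPM with a median of 9.30. Its exGF libraries had 9.57, 9.95, 6.01 and 6.74 CPM and exGF-SI libraries 6.73 to 10.3 CPM with a median of 9.01. The log2 fold changes were 0.36 (95% interval -0.02 to 0.74) in CON and 0.14 (-0.20 to 0.47) in exGF mice. This order turned without the libraries rich in Gm42418, where the changes were 0.21 in CON and 0.44 in exGF mice, with edgeR adjusted p of 0.782 and 0.279.

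Spred1 and Spred2 suppress activation of Raf by Ras, and Spred1 brings the Ras inactivator neurofibromin to the membrane. Spred1, at chr2:117121374-117182279, varied least between libraries of a naïve group. It was at 281, 278, 299 and 264 CPM in CON and from 343 to 497 CPM, with a median of 398, in CON-SI, with no overlap. GF libraries had 292, 266, 282 and 315 CPM and GF-SI libraries 276 to 501 CPM with a median of 396, where only the lowest, GF-S10, fell within the range of GF. Naïve exGF libraries had 338, 341, 293 and 263 CPM, all below the exGF-SI libraries at 363 to 563 CPM with a median of 449.6. The rise of Spred1 was 1.48-fold in CON mice (0.56 ± 0.10 SE, edgeR adjusted p = 0.0148), 1.34-fold in GF mice (0.43 ± 0.11, adjusted p = 0.0263) and 1.45-fold in exGF mice (0.53 ± 0.11, adjusted p = 0.0261). The call in exGF mice was lost without exGF-P4 (edgeR adjusted p = 0.124), and the call in GF mice without GF-P2 (adjusted p = 0.108) or GF-P3 (adjusted p = 0.104). Without the libraries rich in Gm42418 the rise in exGF mice was 0.69 on the log2 scale (edgeR adjusted p = 0.0838). In CON mice it was then 0.62, and the call was lost (edgeR adjusted p = 0.152).

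Spred2, at chr11:19924375-20024026, was called in GF mice. GF libraries had 41.6, 37.3, 32.4 and 36.6 CPM, and GF-SI libraries 39.2 at the lowest, 58.8 at the median and 71.4 at the highest, with 1 of the 12 libraries (GF-S10) inside the range of GF. The rise was 1.6-fold (0.68 ± 0.13 SE, edgeR adjusted p = 0.00422) and no left-out library removed it. CON libraries, at 56.5, 50.1, 47.3 and 35.4 CPM, overlapped CON-SI libraries, at 50.9 to 72.3 CPM with a median of 56.8. Likewise exGF libraries, at 65.8, 59.6, 45.4 and 45.9 CPM, overlapped exGF-SI libraries, at 54.0 to 69.5 CPM with a median of 62.6. Log2 fold changes of 0.32 (95% interval 0.06 to 0.57) in CON and 0.19 (-0.04 to 0.42) in exGF mice did not pass the test in edgeR. The exGF values of 65.8 and 59.6 CPM were those of the pools rich in Gm42418. Without the rich libraries the changes were 0.46 in CON and 0.41 in exGF mice, with edgeR adjusted p of 0.275 and 0.121.

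Counted together, 4 of 9 genes rose in CON-SI, where 2.35% of all 15220 genes tested rose and 3.72% changed. In GF-SI 7 of 9 rose, where 7.87% of all genes rose and 13.7% changed, and in exGF-SI 2 of 9 rose, where 4.6% rose and 7.61% changed. The median log2 fold change of the 9 genes was 0.49, 0.63 and 0.33 in CON, GF and exGF mice, against -0.01, -0.01 and -0.000637 over all genes tested. Without the libraries rich in Gm42418 the median of the 9 was 0.49 in CON and 0.55 in exGF mice. Groups did not overlap for 4 genes in CON mice (Dusp4, Dusp6, Dusp14 and Spred1), 2 in GF mice (Dusp4 and Spry2) and 2 in exGF mice (Dusp4 and Spred1), where this held for 3.55%, 3.19% and 4.49% of all genes. With those libraries left out, which left 2 CON libraries, Dusp4 alone was called in CON mice, and the log2 fold changes of Dusp6, Dusp14 and Spred1 were 0.69, 0.78 and 0.62 with edgeR adjusted p of 0.274, 0.369 and 0.152. Summed markers of amygdala nuclei had medians of 309 CPM in CON and 243 CPM in CON-SI, 272 and 275 CPM in GF and GF-SI, and 319 and 234 CPM in exGF and exGF-SI, and their part in the rises was not tested. Of the 7 markers of that list 1 fell in CON-SI (Lmo3), 0 in GF-SI and 1 in exGF-SI (Etv1), and none was at 0 in a library.

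**Figure D2:**
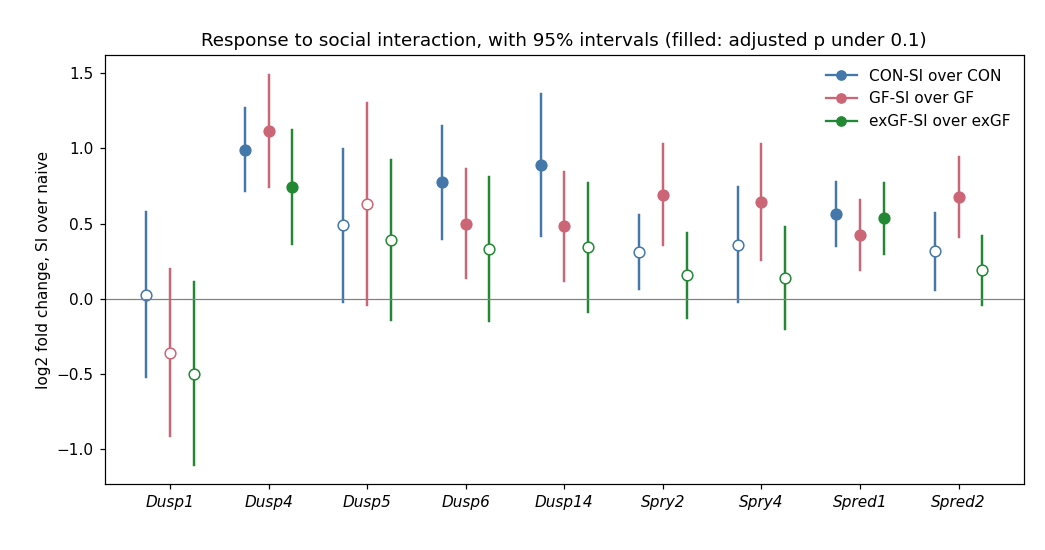
Log2 fold change after social interaction for each gene in CON, GF and exGF mice, on the y axis, with 95% intervals. Filled points passed an edgeR adjusted p of 0.1. Dusp4 was highest in each kind of mouse (0.99, 1.11 and 0.74), and Dusp1 was near or below 0.

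The 3 responses were compared with each other by contrasts in 1 fit over the 6 groups, which asked whether a gene rose more in one kind of mouse than in another. None of the 9 genes differed in any of the 3 contrasts, where 0.0931% (GF against CON), 0% (exGF against CON) and 0% (exGF against GF) of 16111 genes passed in edgeR. At an unadjusted p under 0.05 there were 1, 0 and 2 of the 9 genes, against 15.8%, 5.83% and 11.4% of all genes. DESeq2 called none of the 9, and 4.23%, 0.00338% and 0.386% of the genes it adjusted. The smallest p belonged to Spred2, whose log2 fold change in exGF mice was lower than in GF mice by a difference of -0.49 (95% interval -0.85 to -0.14, edgeR adjusted p = 0.285). Spry2 had a difference of -0.54 (-0.96 to -0.12, adjusted p = 0.303 in edgeR) and Spry4 one of -0.51 (-1.03 to 0.0041, adjusted p = 0.443 in edgeR). Between GF and CON mice the difference was 0.37 (0.01 to 0.72) for Spred2, 0.38 (-0.04 to 0.80) for Spry2 and 0.29 (-0.23 to 0.81) for Spry4. For Dusp14 and Dusp6 the estimates had the other sign, at -0.41 (-1.0 to 0.19) and -0.27 (-0.85 to 0.31) in GF against CON, and -0.55 (-1.16 to 0.07) and -0.44 (-1.04 to 0.16) in exGF against CON. Without the libraries rich in Gm42418 the differences of exGF against GF were -0.29 for Spred2, -0.31 for Spry2 and -0.23 for Spry4 (edgeR adjusted p of 0.768, 0.799 and 0.892). Those of GF against CON were then 0.23, 0.28 and 0.45 for the same genes, and those of exGF against CON were -0.24 for Dusp14 and 0.03 for Dusp6. Over the 9 genes the median difference of exGF against GF was -0.24 with all libraries and -0.03 without the rich ones. The numbers of calls in the 3 kinds of mice thus differed without a difference between responses that passed the test. GF-SI held 12 libraries against 8 each in CON-SI and exGF-SI, and the part of group size in the numbers of calls was not tested.

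**Figure D3:**
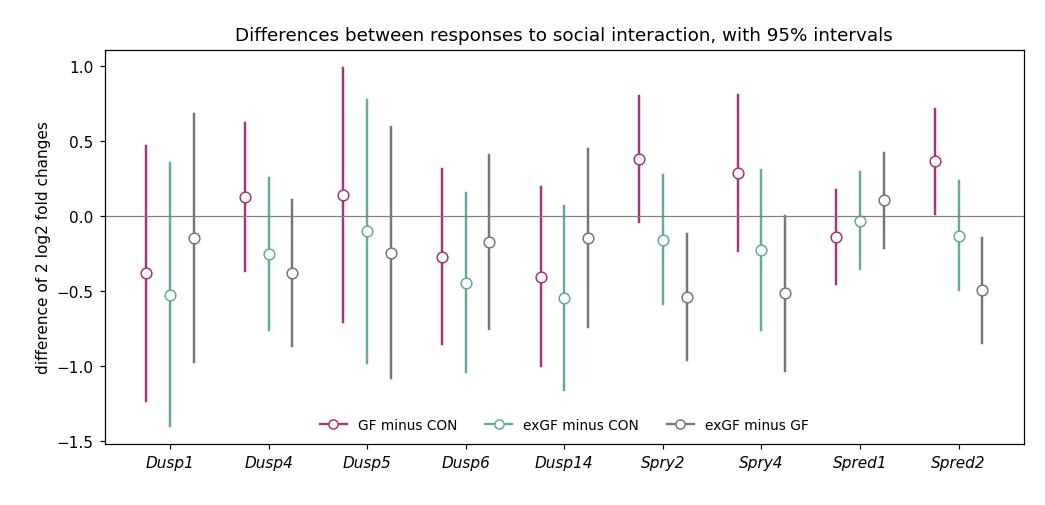
Differences between the log2 fold changes of 2 kinds of mice, on the y axis, with 95% intervals from 1 fit over the 6 groups. Intervals of Spry2 and Spred2 for exGF minus GF lay below 0 (-0.96 to -0.12 and -0.85 to -0.14), and no gene passed after adjustment over all genes. The plot uses all libraries, and without those rich in Gm42418 the 2 estimates were -0.31 and -0.29.

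Naïve mice of the 3 kinds were compared to ask whether the level before the stimulus differed with colonisation. None of the 9 genes passed in CON against GF, CON against exGF or GF against exGF, where 0.142%, 0.104% and 0% of all genes did in edgeR. At an unadjusted p under 0.05 there were 2, 4 and 3 of the 9 genes, against 11%, 5.43% and 9.42% of all genes. DESeq2 called 0, 1 and 1 of them, against 0.927%, 0.243% and 0.583% of the genes it adjusted. Dusp14 was 1.51-fold higher in exGF than in CON (log2 difference 0.59 ± 0.14 SE) with an edgeR adjusted p of 0.296 and an adjusted p of 0.0437 in DESeq2. Dusp6 differed by 0.60 ± 0.18 SE in the same direction (edgeR adjusted p = 0.592). For both genes all exGF libraries were above all CON libraries, and 3.58% of all genes had no overlap between these groups. Without the libraries rich in Gm42418, which left 2 in each group, the differences were 0.35 for Dusp14 and 0.17 for Dusp6, each with an edgeR adjusted p of 0.999. Spred2 was 1.45-fold higher in exGF than in GF (0.54 ± 0.13 SE), without overlap where 5.17% of all genes had none, with an edgeR adjusted p of 0.369 and one of 0.0344 in DESeq2. Without the rich exGF pools, which had the highest Spred2 of that group, the difference was 0.31 (edgeR adjusted p = 0.992). Dusp1 was 1.55-fold higher in GF than in CON (0.64 ± 0.27 SE, edgeR adjusted p = 0.426), and without GF-P1 this was 0.88 with an adjusted p of 0.0732. Without the rich CON pools it was 0.55 (edgeR adjusted p = 0.859).

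The 3 kinds of mice were also compared after social interaction. None of the 9 genes passed in CON-SI against GF-SI, CON-SI against exGF-SI or GF-SI against exGF-SI, where 1.1%, 1.31% and 0.0995% of all genes did in edgeR. An unadjusted p under 0.05 was reached by 1, 0 and 1 of the 9 genes, against 16.5%, 13.5% and 12.9% of all genes. DESeq2 called none of the 9, and 3.28%, 3.33% and 2.08% of the genes it adjusted. Dusp4 was 1.18-fold higher in GF-SI than in CON-SI (0.24 ± 0.12 SE, edgeR adjusted p = 0.301), and the level of Spred1 in exGF-SI was 1.15-fold that in GF-SI (0.20 ± 0.09, adjusted p = 0.36, and also 0.20 without exGF-S7). The log2 differences over the 9 genes lay from -0.22 to 0.25, from -0.10 to 0.25 and from -0.17 to 0.27 in the 3 comparisons. No gene had groups without overlap, which 0.0862%, 0.221% and 0.0133% of all genes had.

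Within the groups after social interaction the animals varied, and the 9 genes were related to Egr1, a transcription factor gene induced by ERK that is not among them. Egr1 ranged over 109 to 215.5 CPM in CON, 102 to 256 CPM in GF and 134 to 271 CPM in exGF animals after the test. Over the 28 single animals, with group means removed, 8 of the 9 genes were correlated with Egr1 at an adjusted p under 0.1 (permutation test within groups, 100000 draws, two-sided, adjusted over the 9 relations). The share of all genes that would pass such a test was not computed, so this count cannot be set against a background. Dusp14 had r = 0.865 (rho = 0.856) and Dusp6 r = 0.844 (rho = 0.837), each with a permutation p of 1e-05, the smallest these draws can give, and an adjusted p of 3e-05. Spred1 followed at r = 0.765 (rho = 0.776) with the same p-values. Dusp1, which did not rise after social interaction, had r = 0.674 (rho = 0.652, permutation p = 0.00024, adjusted 0.000432). Spred2 had r = 0.668 (rho = 0.672, permutation p = 0.00023, adjusted 0.000432) and Dusp5 r = 0.614 (rho = 0.586, permutation p = 0.00093, adjusted 0.00139). For Dusp4, the gene with the highest fold change, r was 0.493 (rho = 0.488, permutation p = 0.00915, adjusted 0.0118). Spry2 had r = 0.399 (rho = 0.461, permutation p = 0.0464, adjusted 0.0523), and Spry4 did not pass at r = 0.214 (rho = 0.212, permutation p = 0.296, adjusted 0.296). The adjusted p for rho was at most 0.0215 for the 8 genes and 0.3 for Spry4.

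Within CON-SI, GF-SI and exGF-SI alone, r was 0.909, 0.779 and 0.952 for Dusp6, 0.935, 0.839 and 0.856 for Dusp14, and 0.922, 0.67 and 0.794 for Spred1. Dusp4 did not hold in each group, with r of -0.448 in CON-SI against 0.672 in GF-SI, and 0.816 among exGF-SI animals. Spred2 had 0.695, 0.838 and 0.188, and Dusp1 had 0.707, 0.697 and 0.613. In the same order of groups r was 0.317, 0.641 and 0.877 for Dusp5, 0.242, 0.455 and 0.44 for Spry2, and -0.193, 0.49 and 0.161 for Spry4. Without the 2 animals farthest from the median of Egr1, exGF-S8 and exGF-S10, r was 0.85 for Dusp14, 0.83 for Dusp6, 0.733 for Spred1, 0.764 for Spred2, 0.724 for Dusp1, 0.571 for Dusp5, 0.406 for Dusp4, 0.367 for Spry2 and 0.315 for Spry4. Without exGF-S7, the single animal rich in Gm42418, the same 8 relations passed. They also passed without GF-S8 and exGF-S9, the animals with high choroid plexus markers, and without all 3 animals r of Spry2 was 0.363 (permutation, adjusted p = 0.101) and the other 7 passed. Leaving out the choroid plexus animals was chosen after these values were seen. The RNA of marker lists also moved with Egr1: r of Egr1 was -0.711 with the summed markers of amygdala nuclei and 0.526 with those of oligodendrocytes. Whether this came with other cells or other RNA per cell was not tested. The amygdala list holds Etv1, an ERK-dependent transcript, and without Etv1 its r with Egr1 was -0.758. Adjusting both genes of a pair for each of 11 marker lists in turn, chosen after these values were seen, gave r of 0.794 to 0.878 for Dusp14, 0.747 to 0.866 for Dusp6 and 0.514 to 0.777 for Spred1. The lowest of each came with amygdala nuclei. With that list r of Dusp4 was 0.267, r of Spry2 was -0.0241 and r of Spry4 was 0.412, above its unadjusted 0.214. Of the 9 relations 7 then passed, with Spry4 among them and Dusp4 and Spry2 not. With Etv1 taken off the list, a choice also made after seeing the data, r was 0.753 for Dusp14, 0.662 for Dusp6, 0.383 for Spred1 and 0.546 for Spry4. The values also leaned on Lmo3, without which r of the list with Egr1 was -0.509. Adjusted r was then 0.815 for Dusp14, 0.806 for Dusp6, 0.668 for Spred1, 0.372 for Dusp4, 0.229 for Spry2 and 0.348 for Spry4.

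**Figure D4:**
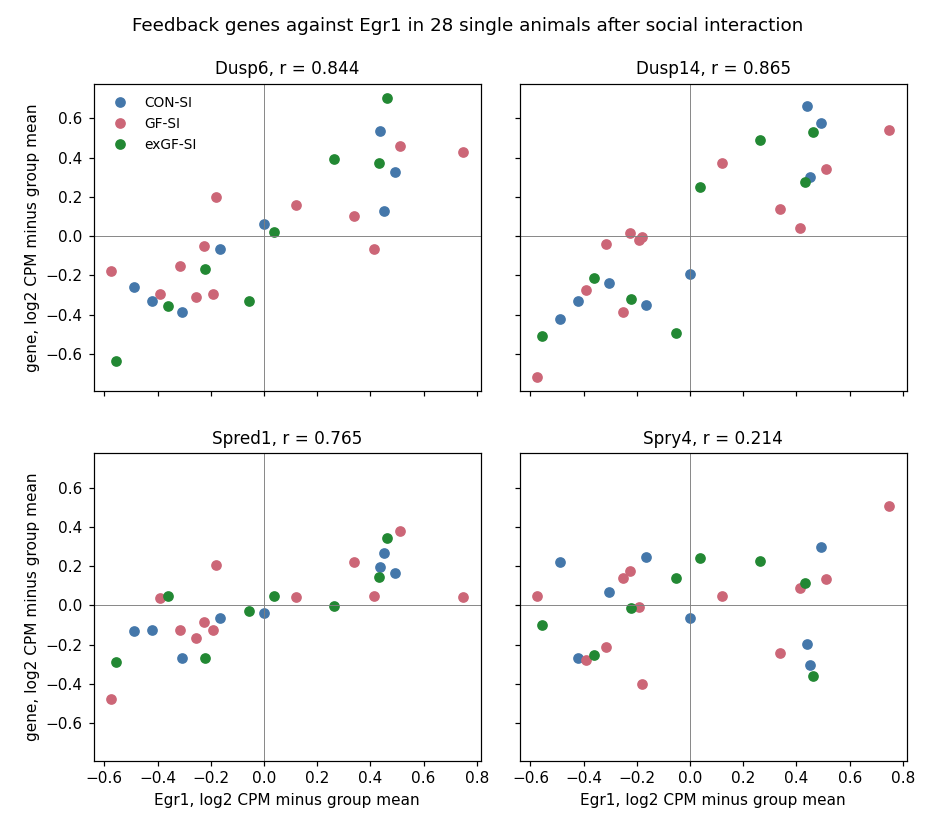
Level of Dusp6, Dusp14, Spred1 and Spry4 (y axis) against Egr1 (x axis) in 28 animals after social interaction, as log2 CPM minus the mean of the group, coloured by group. Dusp6, Dusp14 and Spred1 rose along with Egr1 (r of 0.844, 0.865 and 0.765), and Spry4 had r = 0.214. The levels plotted are not adjusted for marker lists, and with the amygdala list Spry4 had r = 0.412.

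Other genes of the pathway were described by lists. Beside the counts that follow, 2.35%, 7.87% and 4.6% of all genes rose in CON-SI, GF-SI and exGF-SI. Of 9 other dual-specificity MAPK phosphatases tested, 1 rose in CON-SI, Dusp26 (log2 fold change 0.31, edgeR adjusted p = 0.062), and none was called in GF-SI or exGF-SI, with list medians of 0.13, 0.02 and 0.02. Of 11 other inhibitors of Ras and ERK, Errfi1, a feedback inhibitor of the EGF receptor, rose in CON (0.44, adjusted p = 0.0785), GF (0.39, adjusted p = 0.0422) and exGF mice (0.39, adjusted p = 0.0885), all in edgeR. Spry1 fell in GF-SI by 0.43 on the log2 scale (edgeR adjusted p = 0.0523), opposite to Spry2 and Spry4. The remaining members of that list were not called, and its medians were -0.01, -0.01 and -0.05.

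The core of the cascade, 20 genes from Grb2 and Sos through Ras and Raf to ERK, had 0, 4 and 2 genes called in CON-SI, GF-SI and exGF-SI. Of all genes 3.72%, 13.7% and 7.61% were called there, so these counts are near the background. Sos2, which loads Ras with GTP, rose in GF-SI (0.29) and exGF-SI (0.24), and the adaptor Grb2 rose in GF-SI (0.25). Map2k2, a kinase of ERK, fell in GF-SI by 0.26 on the log2 scale, and is named outside the rule, after its value was seen. Among 10 kinases of the JNK and p38 branches, Mapk11 rose in CON-SI (0.71) and Mapk14 in GF-SI (0.27), both p38 kinases, and none was called in exGF-SI. The ERK5 branch had no call among its 4 genes in the 3 comparisons.

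Among genes downstream of ERK and of neuronal activity, the activity-induced genes had the highest list medians. Of these 12 activity-induced genes 8, 6 and 4 rose in CON-SI, GF-SI and exGF-SI, with list medians of 1.04, 0.70 and 0.69. Fosb rose by 2.58, 1.53 and 1.96 on the log2 scale and Fosl2 by 1.29, 1.35 and 1.03, both parts of the AP-1 transcription factor. Nr4a3, a nuclear receptor, rose by 0.96, 1.58 and 0.82, and Ier2 fell in exGF-SI by 1.08. Among ERK-dependent transcripts, 2 of 9, 2 of 10 and 0 of 9 rose. Egr1 rose in CON-SI (1.18) and GF-SI (1.17) and had 0.55 in exGF-SI (edgeR adjusted p = 0.198). Its naïve levels were 80.0 to 197 CPM in exGF and 60.2 to 78.8 CPM in CON. That difference of 0.98 on the log2 scale did not pass (edgeR adjusted p = 0.353), and its part in the response was not tested. Etv5, an ETS factor, rose in CON-SI (0.62) and GF-SI (0.46), and Etv1 fell in exGF-SI by 0.38. Upstream of the cascade, the neurotrophin gene Bdnf rose in each kind of mouse (0.92, 1.15 and 0.92), Fgfr2 in CON-SI (0.52) and exGF-SI (0.57) and Ntrk2, the receptor of BDNF, in exGF-SI (0.21).

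**Figure D5:**
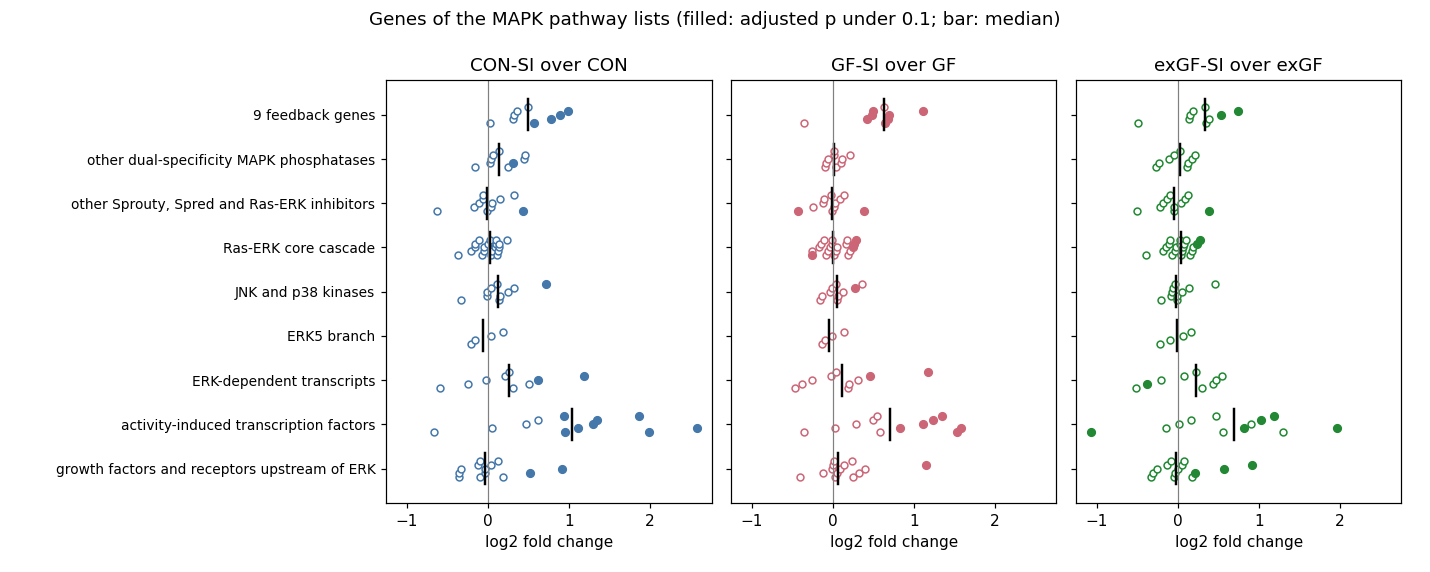
Log2 fold change after social interaction (x axis) of the genes of 9 pathway lists (rows), in CON, GF and exGF mice. Points are genes, filled where the edgeR adjusted p was under 0.1, and bars are medians. The 9 feedback genes (medians 0.49, 0.63 and 0.33) and the activity-induced genes (1.04, 0.70 and 0.69) lay to the right of 0, and the core cascade was centred near it.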

How the data were processed

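RNA sequencing of the amygdala gave 40 libraries in 6 groups. Per the labels and the study's methods, the authors made stranded, ribodepleted libraries, trimmed paired reads with Trimmomatic 0.32, aligned them to GRCm38 with STAR 2.4.0f1 and assigned them to genes by HTSeq 0.6.0, disregarding strand. The deposited values are whole-number counts with no scaling, and GENCODE vM21 supplied symbols for 42462 of the 43629 genes. Column names gave the group of each library, and 0 pairs of libraries were identical. The authors' own results of comparisons, exon usage, behaviour and RT-qPCR were not used here.

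Counts were compared with edgeR 4.0.16 in R 4.3.3 (quasi-likelihood F-test, TMM scaling, filterByExpr, Benjamini-Hochberg adjustment over all genes tested, threshold 0.1 as in the study) within each of 9 pairs of groups, and in 1 fit over the 6 groups for the 3 differences between responses. CPM were scaled by TMM over all libraries, and log2 CPM used a prior count of 2. Correlations were tested by permutation in Python 3.11.15 (numpy 2.4.6, scipy 1.17.1, pandas 2.3.3) and figures drawn with matplotlib 3.10.9. The code was tested on simulated data. Alternatives were DESeq2 1.42.0, 1 fit over the 6 groups, RLE scaling, testing without the filter, leaving out libraries with over 5% Gm42418, and leaving out each library in turn.

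All 9 genes are named in every comparison. Of the other pathway lists, up to 3 genes with the smallest p per list and comparison of social interaction with naïve mice are named, and where called their values are given in the other such comparisons too. Some genes that this rule or the likeness of patterns picks are not reported here. The genes, the lists and the markers were chosen with earlier results of these data known.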

Additional observations from a re-analysis of the deposited data

Results flagged for a closer look

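In 2 of 45 sets of libraries tested, each 1 gene in 1 group, a single library lay far from the rest, and about 1 in 20 such sets is marked by chance. Both concerned the same naïve library, GF-P3. Dusp14 was at 40.2 CPM there, against 27.9 to 29.6 CPM in the other GF libraries. Spry2 was at 12.4 CPM there, against 18.2 to 19.3 CPM in the others. Without GF-P3 the log2 fold change of Dusp14 after social interaction in GF mice was 0.61 (edgeR adjusted p = 0.104), against 0.48 with it, and Spry2 was still called.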

How the results depend on the processing

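The number of the 9 genes called was the same, within 1.5 times, in 66 of 71 results, the relations with Egr1 included, under the alternatives other than leaving out a library. The exceptions were CON to exGF, with 1 gene in DESeq2 (Dusp14) and 2 without a filter on low counts (Dusp6 and Dusp14), GF to exGF, with 1 gene (Spred2) under each of these alternatives, and CON to CON-SI, with 1 gene without the libraries rich in Gm42418. Leaving out each library in turn gave 0 to 1 genes in CON to GF, 2 to 4 in CON to CON-SI, 3 to 7 in GF to GF-SI, 0 to 2 in exGF to exGF-SI, and 0 in the other comparisons. The cause of these changes was not tested, and each such fit had fewer samples. In GF to GF-SI, 6 genes were called without a filter and 5 in 1 fit over the 6 groups, where Dusp6 and Dusp14 were lost (edgeR adjusted p of 0.106 and 0.131). Called differences did not change sign, and sign changes of differences that passed in neither setting were not counted. No paired analysis was possible because the numbers in the column names could not be tied to the replicate numbers in the labels. Of the 9 relations with Egr1, 7 to 8 passed after adjustment for a marker list, an alternative chosen after seeing the data. The share of all genes that would pass was not computed, so this count has no background. The genes that passed also changed, since with the amygdala list Spry4 passed and Dusp4 and Spry2 did not. Pools and single animals differ with the stimulus, and low counts limit Dusp1, Dusp5 and Spry4.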

Other observations

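The genes whose levels moved most like those of each called gene were found by the correlation of log2 CPM over the 40 libraries, with group means removed. They are given as descriptions, since the points share libraries and their makeup. Dusp6 was closest to genes of the activity response, with r of 0.888 for Nr4a1, 0.869 for Arc and 0.867 for Egr2. Dusp4 was closest to Bdnf (0.668), Pcsk1 (0.614), which processes neuropeptide precursors, and Dcun1d3 (0.592). Spred1 was closest to Homer1 (0.913), a scaffold of the postsynaptic density, Pdp1 (0.905) and Gm11549 (0.89). Dusp14 was closest to Arpp19 (0.851), Rnd1 (0.847) and Cckbr (0.845), a receptor of cholecystokinin. Spred2 had r of 0.877 with Fmnl1 and 0.876 with Flrt1, and Spry2 was closest to Sept11 (0.81), Rundc1 (0.785) and Stx4a (0.778). Spry4 had lower values, with Tmc6 (0.652), Flcn (0.647) and Dlc1 (0.621).

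Among the 9 genes themselves, Dusp6 and Dusp14 were the most alike pair (r = 0.793), followed by Dusp14 and Spred1 (0.698) and Dusp1 and Dusp6 (0.688). Spry2 was closer to Spred1 (0.607) and Spred2 (0.578) than to Spry4 (0.194). The lowest value was that of Spry4 and Spred1, at -0.053.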
